A study of Mus musculus with 4 samples.

Results

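Id1, Id2 and Id3 encode inhibitors of differentiation, small helix-loop-helix proteins, and their RNA was followed in mouse 3T3 fibroblasts over 12 h of tumour necrosis factor (TNF), an inflammatory cytokine. All probe sets annotated to these symbols were taken, which gave 5 probe sets for 3 of the 18194 genes named on the array: 1 for Id1, 3 for Id2 and 1 for Id3. The genes were chosen by a readout of these same arrays, the joint fall of their signals against basal, so their ratios are given as a description, with no test. The 4 groups were basal cells and cells given TNF for 0.5 h, 2 h and 12 h, with 1 array each and therefore no replicate check of any difference. All groups were an immortal embryonic fibroblast line kept overnight in 0.5% serum, and the labels name no genetic change. The labels give a TNF dose of 10 ng/ml for the 0.5 h and 12 h samples and none for the 2 h sample, whose protocol is worded as that of basal cells. No array of cells kept for the same times in low serum without TNF was analysed here, so time in low serum and TNF cannot be told apart.

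Id proteins dimerise through their helix-loop-helix domain but lack the basic region that contacts DNA. They bind E proteins, the common partners of tissue-specific basic helix-loop-helix (bHLH) factors such as MyoD, and so keep those factors off their E-box sites. In many cells Id genes are direct targets of bone morphogenetic protein (BMP) signals, carried by SMAD1 and SMAD5, and they are expressed in dividing, undifferentiated cells and switched on when starved fibroblasts receive serum.

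The values are deposited linear signals, 1 per probe set, and levels of different probe sets are not compared because each set of probes has its own sensitivity. A floor was set at 9.08, the 30th percentile of the whole table, and lower signals were raised to it, and 16270 genes lay above it on at least 1 array. A second, higher floor at the 75th percentile (signal 102) left 7312 genes. A gene is said to have risen or fallen where its signal ratio was at least 2-fold, which is a rule of size and not a test. The median signal of the arrays lay between 19.9 (12 h) and 22.1 (basal), and over all probe sets the log2 ratio to basal had a median of -0.05, -0.12 and -0.20 at the 3 times. Of 12 fibroblast markers, 9 exceeded a signal of 102 on some array, among them Col1a1, Vim and Fn1, while Dcn, Lum and Thy1 stayed at 20.7 or lower. The same signal was exceeded by 1 of 8 markers of macrophages and leukocytes, 0 of 6 of endothelium and 0 of 6 of epithelium. The leukocyte markers Ptprc, Itgam and Cd3e and the endothelial marker Vwf were under the floor on all arrays.

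No promoter window was available for Id1, and control elements further upstream lie outside the windows used. Of the 3 genes, the sequences just upstream are therefore shown for Id2 and Id3 only. They are the 250 bases before the RefSeq start site in the GRCm38.p6 build, written 5′ to 3′ along the gene. Capitals mark 3 motifs found on either strand: CCAAT, the box bound by NF-Y, GGGCGG, the GC box bound by SP1, and GGCGCC, a GC-rich SMAD element.
Id2, chr12:25096093-25096342, minus strand: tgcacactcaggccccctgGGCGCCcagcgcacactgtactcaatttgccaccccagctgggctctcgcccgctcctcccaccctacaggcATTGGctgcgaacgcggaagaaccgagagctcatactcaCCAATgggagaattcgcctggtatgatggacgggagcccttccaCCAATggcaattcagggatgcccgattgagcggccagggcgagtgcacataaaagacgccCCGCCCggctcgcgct
Id3, chr4:136143572-136143821, plus strand: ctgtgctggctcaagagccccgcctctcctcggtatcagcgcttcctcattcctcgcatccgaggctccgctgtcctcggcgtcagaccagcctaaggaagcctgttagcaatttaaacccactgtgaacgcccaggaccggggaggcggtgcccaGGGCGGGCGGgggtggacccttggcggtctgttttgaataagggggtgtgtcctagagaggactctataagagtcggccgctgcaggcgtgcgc

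The 2 upstream windows differed in the motifs they held. Id2 had 3 CCAAT boxes, starting 159, 120 and 76 bases before the start site, and Id3 had 0. At least 1 CCAAT box stood in 33.9% of the 32851 promoter windows of the same length, and 3 or more in 2.79%. The GGCGCC element occurred 1 time in Id2, 231 bases before the start, and in 9.59% of all windows. Id3 had 2 overlapping GC boxes, at 94 and 90 bases, and 2 SMAD boxes (GTCTG), at 167 and 68 bases; Id2 had 1 GC box, at 16 bases, and 0 SMAD boxes. The GC box was present in 32.7% of all windows and the SMAD box in 42.2%. The consensus of NF-kB, the transcription factor that TNF activates, was searched by its 10-base pattern on both strands; it had 0 matches in either window and occurred in 3.90% of all windows. These are letter matches only, and factor binding was not measured.

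On its brightest probe set Id2 had the lowest 2 h and 12 h ratios of the 3 genes. With the mean of its 3 probe sets the order turned: Id2 then had -0.77 at 2 h and -1.65 at 12 h, against -0.97 and -1.67 for Id1. The brightest probe set (1435176_a_at) had signals of 784 in basal cells and 644, 309 and 182 after 0.5, 2 and 12 h of TNF. The signal was thus highest in basal cells and lower on each later array. Id2 fell 2.54-fold at 2 h (log2 ratio -1.34) and 4.30-fold at 12 h (-2.10), when 23.3% of the basal signal was left. At 0.5 h its log2 ratio was -0.28, short of the rule.

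Id1 fell at 12 h and was close to 2-fold lower at 2 h. Its single probe set (1425895_a_at) gave 910 in basal cells and 736, 464 and 287 after 0.5, 2 and 12 h of TNF. Each array was again lower than the one before it. At 2 h the log2 ratio was -0.97, just short of 2-fold, with 51.0% of the basal signal left. At 12 h Id1 fell 3.17-fold (-1.67), to 31.5% of basal.

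Id3 changed least and did not start downward at 0.5 h. Its probe set (1416630_at) gave 1647 in basal cells and 1739, 1152 and 768 after 0.5, 2 and 12 h of TNF. The first TNF array was slightly above basal, and the next 2 were below it. The log2 ratios were 0.08 at 0.5 h, -0.51 at 2 h and -1.10 at 12 h, so Id3 fell 2.14-fold at the last time only. That call rests on the deposited scale: with each array centred on its median the 12 h ratio was -0.95, with quantile normalization -0.88 and with loess -0.89, all short of 2-fold.

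**Figure D1:**
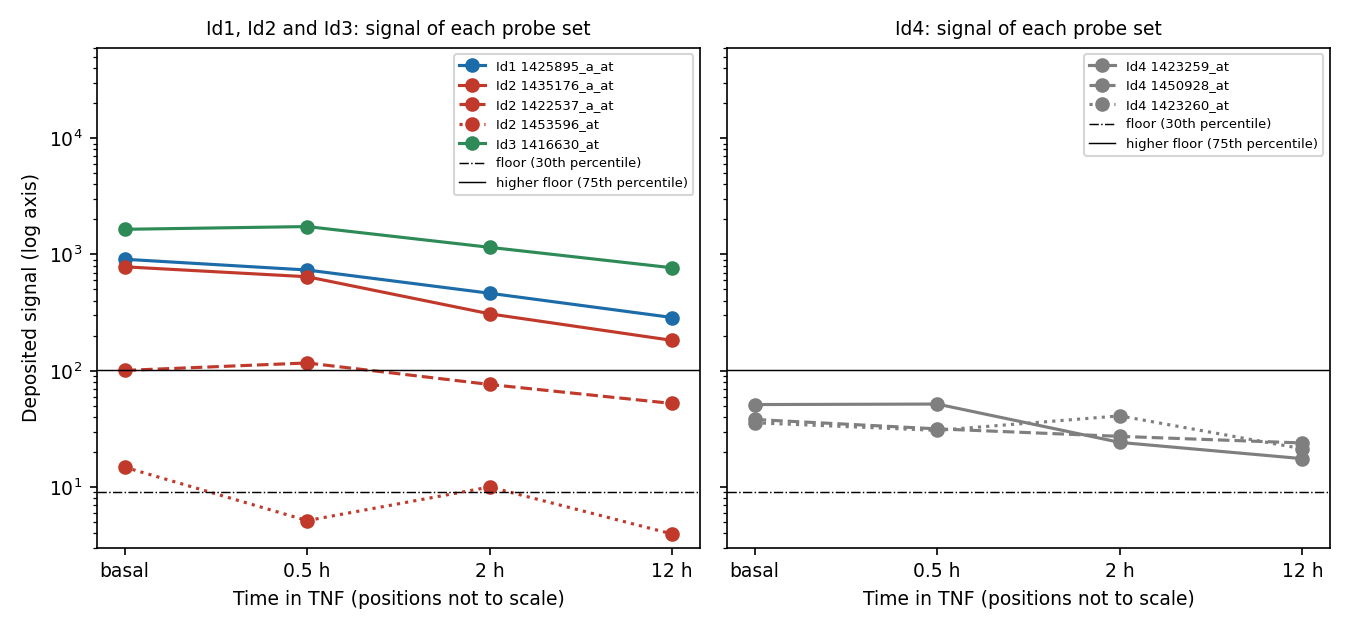
Deposited signal (log axis) of every probe set of Id1, Id2 and Id3 (left) and of Id4 (right) in basal cells and after 0.5, 2 and 12 h of TNF, 1 array per point; horizontal lines mark the floors at 9.08 and 102. The brightest Id2 probe set drops to 182 at 12 h, against 784 in basal cells, while the Id3 line is level until 0.5 h and all Id4 points lie under the higher floor.

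By the 2-fold rule 0 of the 3 genes fell at 0.5 h, 1 (Id2) at 2 h and 3 at 12 h, and 0 rose at any time. Over all analysed genes 2.96% fell at 0.5 h, 3.6% at 2 h and 5.18% at 12 h. With the higher floor the same 3 counts stood beside 0.0137%, 0.164% and 1.72% of genes. Because the genes were picked for this contrast, nothing is read from these counts. In order of size of fall among the 7312 genes at the higher floor, Id2 stood at place 4 at 2 h and 5 at 12 h, Id1 at 16 and 13, and Id3 at 241 and 86. Among all 16270 analysed genes the places were 218 and 26 for Id2, 651 and 121 for Id1, and 2202 and 630 for Id3. The higher floor raises dim signals of other genes and so shrinks their falls, while the Id signals used lie above it. The 3 TNF comparisons share the basal array, so a single high basal value would lower all of them.

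**Figure D2:**
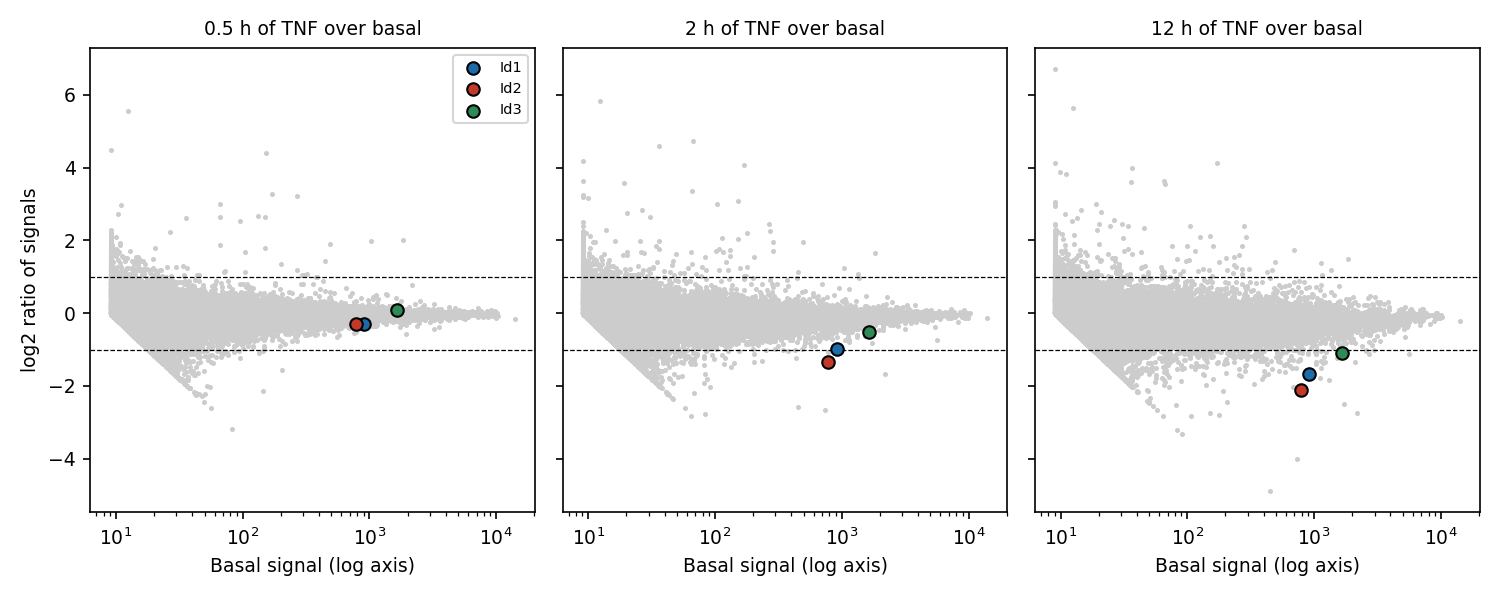
log2 ratio of each TNF array to basal (vertical axis) against basal signal (log axis, values under 9.08 drawn at the floor) for 16270 genes in grey, with Id1, Id2 and Id3 coloured; dashed lines mark 2-fold. The Id genes lie near 0 at 0.5 h, Id2 is the lowest of the 3 at 2 h (-1.34) and 12 h (-2.10), and Id3 is still inside the 2-fold lines at 2 h (-0.51).

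Without replicates, the scatter of probe sets of like brightness is the nearest measure of error. Among the 1000 probe sets closest in mean signal to each gene's probe set, the scaled median absolute deviation of the 12 h log2 ratio was 0.28 for Id1 and Id2 and 0.22 for Id3. The medians of those probe sets were -0.25, -0.25 and -0.21, so part of each fall is shared with other bright probe sets. Relative to these medians the 12 h ratios were -1.42 for Id1, -1.85 for Id2 and -0.89 for Id3. At 2 h the corresponding ratios were -0.84, -1.23 and -0.42, with deviations of 0.16, 0.17 and 0.11. At 0.5 h they were -0.26, -0.23 and 0.12, with deviations of 0.12, 0.13 and 0.09. This scatter includes real changes of other genes and is not a replicate error.

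On the brightest probe sets the 0.5 h ratio was below that of Id3 by 0.39 for Id1 and by 0.36 for Id2 on the log2 scale. Probe set 1422537_a_at of Id2 had 0.21 at 0.5 h, above the 0.08 of Id3, so for Id2 this gap depends on the probe set. Over the step of 1.5 h from 0.5 h to 2 h the log2 ratio was -0.66 for Id1, -1.06 for Id2 and -0.59 for Id3. Of the 3, Id2 alone fell by the rule, as did 2.96% of all analysed genes; with quantile normalization or loess its step was -0.98 or -0.99, short of 2-fold, and with its probe sets averaged -0.24. Over the 10 h from 2 h to 12 h the ratios were -0.69, -0.76 and -0.58, a range of 0.17, and 0 of the 3 genes fell, against 3.12% of all genes. Per hour, the mean log2 change of Id1, Id2 and Id3 was -0.44, -0.71 and -0.40 from 0.5 h to 2 h and -0.069, -0.076 and -0.058 from 2 h to 12 h. From basal to 0.5 h it was -0.62, -0.57 and 0.16, so for Id1 that first step was the steepest. These are mean slopes between 2 arrays and not decay rates of the RNA. At 12 h the ratio of Id2 was lower than that of Id3 by 1.003 and than that of Id1 by 0.44 on the log2 scale; with the probe sets of Id2 averaged it was above that of Id1 by 0.012.

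The other probe sets of Id2 gave smaller or less certain changes. Probe set 1422537_a_at had signals of 101 in basal cells and 117, 76.2 and 52.3 after 0.5, 2 and 12 h of TNF. It was slightly above basal at 0.5 h and lowest at 12 h, with log2 ratios of 0.21, -0.40 and -0.94, so it did not reach the rule at any time. Its 12 h ratio compares with -2.10 for the brightest probe set, and the scatter of probe sets as dim was 0.39. Probe set 1453596_at was near or under the floor throughout, with 14.8 in basal cells and 5.14, 10.0 and 3.94 after 0.5, 2 and 12 h of TNF, and its ratios carry a scatter of 1.33 to 1.52. With the mean log2 signal of its 3 probe sets in place of the brightest, Id2 had ratios of -0.53, -0.77 and -1.65, and no longer fell at 2 h. Over the 5 probe sets of the 3 genes, 3 were below basal at 0.5 h, 5 at 2 h and 5 at 12 h. With no floor, 57.35%, 63.69% and 64.65% of all genes were below basal at these times on their brightest probe sets. The Id genes were picked for their fall, so nothing is read from this count.

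Id4, the remaining member of the family, was dim. Its probe set 1423259_at gave 51.2 in basal cells and 51.7, 24.2 and 17.5 after 0.5, 2 and 12 h of TNF. The first 2 arrays were alike and the last 2 lower, with Id4 falling 2.12-fold at 2 h and 2.92-fold at 12 h on this probe set. With the 3 scalings its 2 h ratio was -0.99 to -0.98, short of the rule, and with the mean of the Id4 probe sets the 12 h ratio was -0.99. The other 2 Id4 probe sets had 12 h log2 ratios of -0.74 and -0.67, and at 2 h 1 of them was above basal (0.20). The scatter of probe sets as dim was 0.57 to 0.59 at 12 h, and all Id4 signals lay under the higher floor.

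Among the partners of the Id proteins, the E protein genes changed less at 12 h than Id1, Id2 and Id3 on the brightest probe sets. The E protein genes Tcf3, Tcf4 and Tcf12 encode E2A, E2-2 and HEB. Tcf3 had signals of 187 in basal cells and 123, 157 and 131 after 0.5, 2 and 12 h of TNF, Tcf4 had 450, 491, 364 and 318, and Tcf12 had 1027, 961, 922 and 902. On these brightest probe sets the lowest E protein ratio at 12 h was -0.51 (Tcf3), and 0 of 3 genes passed the rule at any time. Taken with no floor, all their probe sets were mixed, from -0.96 to 0.25 at 12 h for the 6 of Tcf4. Those of Tcf3 ranged from -1.53 to -0.09 at 0.5 h and from -1.69 to 0.13 at 2 h. For Tcf12 the range at 0.5 h was -1.28 to 0.42. Among 17 analysed class II and related bHLH genes, 0 changed at 0.5 h, 1 fell at 2 h, and 1 rose and 3 fell at 12 h. The genes were Atoh8 at 2 h and Atoh8, Scx, Hand1 (all lower) and Tcf15 (higher) at 12 h; the names outside the rule for named genes were taken after their values were seen. Over all analysed genes 2.55%, 2.58% and 2.79% rose and 2.96%, 3.6% and 5.18% fell at the 3 times. The list counts below are to be read beside these shares.

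Atoh8, a bHLH gene that BMP signals induce, had 91.2 in basal cells and 58.6, 22.2 and 4.31 after 0.5, 2 and 12 h of TNF on its single probe set. Its signal was lower on each array and ended under the floor. Atoh8 fell 4.12-fold at 2 h and at least 10.04-fold at 12 h; the 12 h log2 ratio was -2.12 with the floor at the 50th percentile. Scx, encoding the tendon factor scleraxis, stood at 39.9 at 12 h, against 115 in basal cells, a fall by 1.52 on the log2 scale, but its second probe set gave -0.025 and the mean of the probe sets -0.77. Hand1 and Tcf15 had signals of at most 20.1 in either group, and the second Hand1 probe set gave 1.03 at 12 h, opposite to the first. Ratios of such second probe sets are given with no floor. Twist1 (-0.71 at 12 h) and Twist2 (0.07), mesenchymal bHLH genes that also pair with E proteins, did not pass the rule.

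Among 9 analysed HES, HEY and BHLHE genes, which encode bHLH repressors, Hes1 was the single gene to fall at 2 h and 12 h. Of all analysed genes 3.6% and 5.18% fell at these times. Hes1, a target of Notch signals, had signals of 141 in basal cells and 131, 54.5 and 36.2 after 0.5, 2 and 12 h of TNF. It fell 2.58-fold at 2 h and 3.89-fold at 12 h, though with signals under 102 raised to that value both ratios were -0.47, and its profile was the nearest to that of the brightest Id2 probe set among the 6958 genes compared. Bhlhe40 had a log2 ratio of -0.90 at 12 h and Hes6 of -0.24.

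The genes that carry BMP signals to the Id genes mostly stayed within 2-fold of basal, though only 2 of 13 genes listed as ligands and 4 of 11 receptor genes reached a signal above 102. Of the 13, only Bmp10 (at 0.5, 2 and 12 h, lower) and Bmp5 (at 12 h, higher) passed the rule, with signals of at most 21.8, and Bmp10 did not pass it with any of the 3 scalings (-0.98 to -0.94). Another Bmp5 probe set gave -0.84 at 12 h. The 2 bright genes were Bmp4 and Bmp1, and Bmp1 encodes a procollagen protease despite its name. Bmp4 had 1314 in basal cells and 1403, 868 and 816 after 0.5, 2 and 12 h of TNF. It was high on the first 2 arrays and lower on the last 2, with log2 ratios of 0.09, -0.60 and -0.69. On the brightest probe sets 0 of 11 BMP receptor genes changed at any time, and the type I receptor Bmpr1a had -0.56 and the type II receptor Bmpr2 -0.59 at 12 h. With no floor, the probe sets of Bmpr1a ranged from -3.50 to -0.56 at 12 h and those of Bmpr2 from -0.59 to 0.22. With the mean of probe sets 1 of the 11 receptor genes fell at 12 h.

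On their brightest probe sets the SMAD genes mostly showed the same small range. Smad1 had signals of 511, 446, 418 and 351 over the 4 arrays in order of time, and Smad5 had 210, 176, 180 and 157; these are the SMADs that BMP receptors phosphorylate. Smad4, the shared partner, had 1067, 1039, 964 and 875. Smad2 and Smad3, which carry TGF-beta signals, had 12 h log2 ratios of -0.21 and -0.11. Over the 3 probe sets of Smad3 the highest ratios, given with no floor, were 1.49, 1.19 and 1.05 at 0.5, 2 and 12 h. The lowest were -0.13, 0.24 and -0.11. On the brightest probe sets Smad9 was the only SMAD gene past 2-fold, higher at 0.5 h (at least 2.78-fold) and 2 h. Smad9 had at most 25.3 on any TNF array, against a basal signal of 2.63 under the floor. With the floor at the 50th percentile its 0.5 h ratio was 0.27. The median log2 ratio of the 6 SMAD genes at 12 h was -0.25, beside -0.14 for all analysed genes, and with loess it was -0.02.

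Among 18 analysed genes other than Id1, Id2 and Id3 that are known as targets of SMAD1 and SMAD5, 3 rose and 1 fell at 0.5 h, 1 rose and 2 fell at 2 h, and 0 rose and 4 fell at 12 h. Beside these counts, 2.55%, 2.58% and 2.79% of all analysed genes rose and 2.96%, 3.6% and 5.18% fell at the 3 times. Smad9 rose and Atoh8 and Id4 fell at 2 h, and the 4 at 12 h were Atoh8, Id4, Bambi and Dlx5. The median log2 ratio of the 18 was -0.35 at 2 h and -0.43 at 12 h, against -0.09 and -0.14 for all analysed genes; with loess the 12 h median was -0.24 against a median of 0 for all genes, with 3 genes lower and 1 higher. Bambi, which encodes a decoy receptor that damps BMP and TGF-beta signals, had 49.3 in basal cells and 35.2, 30.5 and 11.1 after 0.5, 2 and 12 h of TNF, and fell 4.44-fold at 12 h (log2 ratio -2.15), or -1.23 with the floor at the 50th percentile. Dlx5, a homeobox gene of bone formation, stood at 20.5 at 12 h, against 41.8 in basal cells, 2.04-fold lower, and was short of the rule with each scaling (-0.88 to -0.86). Smad6 and Smad7, the inhibitory SMADs, had 12 h log2 ratios of -0.65 and -0.75, and the homeobox gene Msx1 had -0.85 at 2 h and -0.79 at 12 h, all short of the rule; the second Msx1 probe set gave 0.27 at 2 h. Junb was the bright gene that went the other way, at 688 at 0.5 h against 323 in basal cells (2.13-fold higher), with -0.95 at 12 h. Smad9, Nog and Dlx3 were the other genes to change at 0.5 h, at signals of at most 25.3 in either group.

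Of 22 inhibitors of BMP and SMAD signals, Nog rose and Chrd fell at 0.5 h, 0 changed at 2 h and Bambi fell at 12 h. These counts stand beside 2.55% of all analysed genes that rose and 2.96% that fell at 0.5 h, and 5.18% that fell at 12 h. Nog and Chrd encode secreted proteins that trap BMPs, and their signals were 22.6 and 25.5 at 0.5 h, against 10.2 and 56.1 in basal cells. Grem1, another secreted BMP trap, had a log2 ratio of -0.60 at 2 h and -0.33 at 12 h. Of 11 TGF-beta ligand and receptor genes 0 changed, and likewise 0 of 11 TGF-beta target genes, whose median at 12 h was -0.10. The 12 h ratios of these target genes ranged from -0.75 (Smad7) to 0.72 (Ltbp2), and Acta2, Tagln and Col1a1 lay between -0.03 and 0.04.

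**Figure D3:**
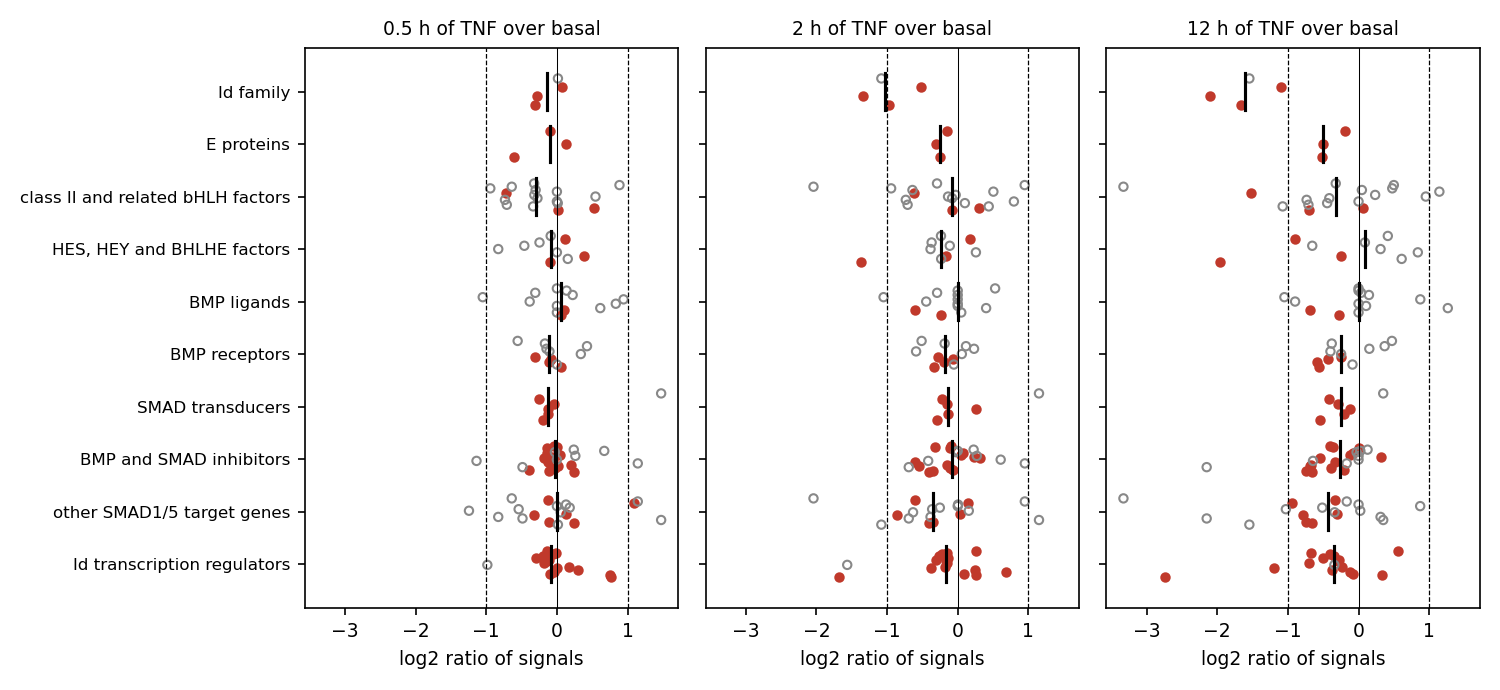
log2 ratio to basal after 0.5, 2 and 12 h of TNF for the genes of 10 lists, 1 point per gene; filled red points exceeded the higher floor on some array, open grey points did not, black bars are list medians and dashed lines mark 2-fold. The Id family moves to a median of -1.61 at 12 h, while the E protein, BMP receptor and SMAD lists stay within 2-fold apart from the dim gene Smad9.

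Regulators that act on the Id genes or proteins were followed in the same way. Egr1, a zinc-finger factor able to activate Id promoters, had signals of 2174 in basal cells and 3688, 681 and 325 after 0.5, 2 and 12 h of TNF. Egr1 was highest at 0.5 h and fell 3.19-fold at 2 h and 6.68-fold at 12 h. A link between Egr1 and the Id genes was not tested. Srf, encoding serum response factor, had 497 in basal cells and 497, 383 and 217 at the 3 TNF times, and fell 2.29-fold at 12 h, though with quantile normalization or loess its ratio was -0.95 or -0.96. Of the 16 analysed regulators Egr1 and Srf were the 2 to fall at 12 h, beside 5.18% of all analysed genes, and 0 rose. At 2 h Egr1 and Klf17 fell, beside 3.6% of all analysed genes. Klf17 fell to a signal of 9.69, while another Klf17 probe set gave 0.22. Atf3, a repressor of Id1 in epithelial cells given TGF-beta, had log2 ratios of 0.76, 0.26 and 0.33. The 3 subunits of NF-Y, which binds CCAAT boxes, had 12 h ratios of -0.28 (Nfya), -0.51 (Nfyb) and -0.35 (Nfyc).

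Of 7 genes that set the stability of Id proteins, Cdc20, an activator of the anaphase-promoting complex, was the 1 to pass the rule at 12 h, with 1271 at 12 h against 2560 in basal cells, 2.01-fold lower; with the 3 scalings its ratio was -0.86 to -0.82, short of the rule. Usp1, the deubiquitinase that stabilises Id proteins, had a log2 ratio of -0.48 at 12 h. The retinoblastoma family, bound by Id2, had 12 h ratios of -0.59 (Rb1), -0.67 (Rbl1) and -0.52 (Rbl2) on the brightest probe sets, and 0 of 3 passed the rule. With no floor, their probe sets ranged at 12 h from -3.55 to -0.59, from -2.53 to 1.765 and from -0.52 to 0.16. With the mean of probe sets 1 of the 3 fell at 12 h. Of 5 CDK inhibitor genes, a class that Id proteins can repress, 0 changed. At 12 h Cdkn2b was at 0.57 and Cdkn2a, encoding p16 and p19ARF, at 0.20. Cdkn1a was at -0.58, Cdkn1b at -0.36 and the dim Cdkn1c at -0.29, and the median of the 5 was -0.29. Of 8 ETS factor genes, some of which encode Id-binding proteins, 0 changed.

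Id proteins hold back differentiation programmes, and of the genes of those programmes 0 of 9 myogenic, 0 of 4 osteogenic and 3 of 7 adipogenic ones exceeded a signal of 102. Of 9 analysed myogenic genes 0 rose, Des fell at 2 h and 12 h, to under the floor, against a basal signal of 36.1, while its second probe set gave -0.023 and 0.65, and Myod1 stayed between 7.76 and 13.3. The summed signal of 6 skeletal muscle markers was 62.5 to 91.0 over the 4 arrays. Of 4 analysed osteogenic genes 0 rose and Dlx5 fell at 12 h. In the adipogenic list of 7 genes, Cebpd rose at 2 h, to 1114 against 288 in basal cells, and Cebpa fell at 0.5 h and 12 h, against a basal signal of 20.1. The fat-cell gene Fabp4 was bright on all arrays, between 1450 and 1886, with a log2 ratio of -0.36 at 12 h. Whether fewer cells expressed the Id genes or each cell held less of their RNA cannot be told apart in RNA from whole cultures.

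Genes of like profile were found by the Euclidean distance between the 3 log2 ratios to basal, over 6958 genes with a basal signal above 102. For Id1 the nearest were Lima1 (distance 0.23), Gas2l3, Irx3, Npepps and Tspan12 (0.34). Lima1, encoding an actin-binding protein, had ratios of -0.35, -0.80 and -1.51. For Id2 they were Hes1 (0.23), Malat1, Eva1a, Smc4 and Shcbp1 (0.71), so that after Hes1 the next profile lay 0.54 away. For Id3 they were Gse1 (0.089), Lhx2, Gpsm2, Aurkb and Thoc6 (0.15). Aurkb, a mitotic kinase, had ratios of -0.01, -0.54 and -1.21. Around the mean of the 3 Id genes lay Irx3 (0.22), a homeobox gene, Gas2l3, Lima1, the mitotic motor gene Kif11 and Cbl (0.31). Likeness over 3 ratios that share the basal array is a description of these arrays.

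**Figure D4:**
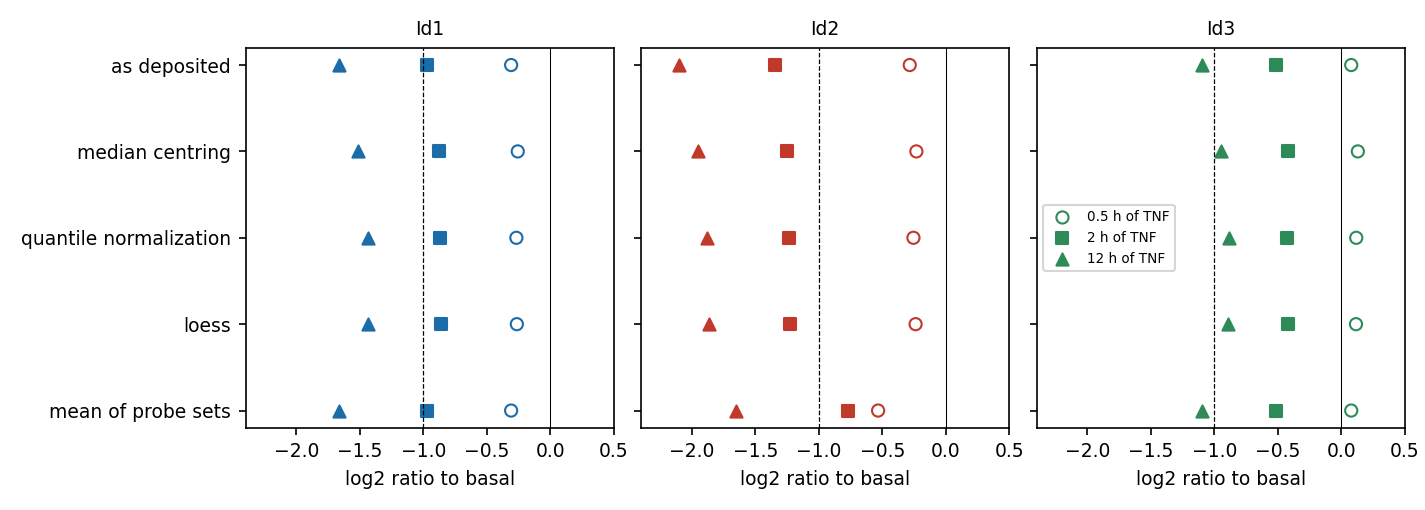
log2 ratio to basal of Id1, Id2 and Id3 at 0.5 h (open circles), 2 h (squares) and 12 h (triangles) on the deposited scale, after 3 ways of scaling the arrays, and with all probe sets of a gene averaged; the dashed line marks 2-fold lower. Scaling moves Id3 at 12 h to between -0.95 and -0.88, and averaging probe sets moves Id2 at 2 h to -0.77.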

How the data were processed

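RNA of 4 samples was measured on oligonucleotide arrays, 1 array in each of 4 groups taken from the sample titles. The deposited table holds a linear intensity for each probe set and array, made by standard Affymetrix procedures per the labels; which algorithm and scaling gave the signals is not stated in those labels. Of 45101 probe sets, 34958 were annotated to 1 gene, 932 to several and 9160 (besides 64 controls) were not listed; symbols were updated through a RefSeq table of GRCm38.p6, and promoter windows came from RefSeq in that build. The probe set of highest mean log2 signal stood for a gene. Floors, ratios and list medians were computed with Python 3.11.15, pandas 2.3.3 and statsmodels 0.14.6 (loess span 0.3), and checked on simulated data. With 1 array per group 0 tests were run; the number of arrays limits the precision.

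The named genes were the Id family with every probe set, list members past 2-fold at the higher floor, all E protein and SMAD genes, the 5 nearest profiles to each Id gene and to their mean, and 5 genes that fell at 12 h, picked by the basal signal of their probe sets. The members and lists were chosen with earlier results of these data known. Alternatives were other floors, 3 scalings, the mean of probe sets and other fold rules.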

Additional observations from a re-analysis of the deposited data

How the results depend on the processing

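With 3 scalings 0 of 45 Id ratios moved by more than the scatter of probe sets of like signal. This is a weak check, because the scalings make only small shifts beside that scatter. Id3 at 12 h went from -1.10 to -0.88, against a scatter of 0.22, and lost its 2-fold call without counting as moved. The 3 other floors could not move an Id ratio, since the probe sets used lie above them on every array, and averaging probe sets could not move Id1 or Id3, which have 1 each. For Id2 averaging moved 4 of 5 ratios by more than the scatter: -0.53 at 0.5 h, -0.77 at 2 h, -1.65 at 12 h and -0.24 from 0.5 h to 2 h, where 2 dimmer probe sets enter the mean. At 12 h the ratio ranged from -1.67 to -1.43 for Id1, from -2.10 to -1.65 for Id2 and from -1.10 to -0.88 for Id3, so that 2 and not 3 genes fell with any of the 3 scalings. The count of Id genes lower at 2 h was 1, but 0 with the mean of probe sets or a 3-fold rule and 2 with a 1.5-fold rule. From 0.5 h to 2 h it was 1, but 0 with quantile normalization, loess, the mean of probe sets or a 3-fold rule and 3 with a 1.5-fold rule. From 2 h to 12 h it was 0, and 2 with a 1.5-fold rule. The share of all genes that fell at 12 h was 12.9% with no floor, 5.18% with the floor used and 3.23% with loess; genes rose in 4.01% with loess, against 2.79%. No paired analysis was possible because each group holds 1 array, and leaving out an array would remove its group. Signals near the floor limit what can be said of Id4, of 1 Id2 probe set and of most myogenic and osteogenic genes.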

Other observations

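Among the genes that fell at 12 h, 5 were picked by the basal signal of their probe sets, which is no order of expression: Ccn1, Cd24a, Pclaf, Cdc20 and Anln. Ccn1, a matricellular gene switched on early by serum, had 5602 in basal cells and 5816, 3383 and 2593 after 0.5, 2 and 12 h of TNF, so it kept its basal signal at 0.5 h and fell 2.16-fold at 12 h. Pclaf and Anln, genes of DNA replication and of cell division, fell 2.19-fold and 2.06-fold, with 1232 and 1239 at 12 h against 2704 and 2551 in basal cells. Cd24a, a surface glycoprotein gene, only just met the rule, 2.002-fold lower. With each of the 3 scalings all 5 were short of 2-fold at 12 h, and with the mean of their probe sets Ccn1 and Pclaf had log2 ratios of -0.24 and -0.18.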
